A study of Mus musculus with 12 samples.

Results

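The chemokine and oxysterol receptors of B cells were followed across 12 RNA-seq libraries of mouse splenic B cells. They are 8 receptor genes taken by name (Cxcr4, Cxcr5, Ccr7, Ccr6, Ccr9, Cxcr3, Ackr3 and Gpr183) out of 43629 genes in the count table, and all 8 had enough counts to be tested in every comparison. The libraries fall into 3 groups of 4. Zfp36l1-deficient marginal zone (MZ) B cells carried the genotype Zfp36l1fl/flERT2cre/+, with 1 copy of an ERT2cre transgene and a floxed Zfp36l1 gene. Control MZ B cells were ERT2cre/ERT2cre, so they differ from the deficient cells in the number of ERT2cre copies as well as in the floxed allele. Follicular (FO) B cells were Zfp36l1fl/fl cre-, so they carried the floxed gene without cre. All mice are listed under the strain Zfp36l1tm1.1Tnr. ERT2cre is a recombinase that acts once a tamoxifen-like drug is given; the labels name neither its promoter, nor a drug or its timing, nor the age of the mice. Both gates are given as B220+CD93+, with CD21hiCD23- for MZ and CD21+CD23+ for FO cells. Per the design text, a SMARTer kit and 100 bp paired reads served for the MZ cells, starting from 5 ng of RNA, and a stranded TruSeq kit with 100 bp single reads served for the FO cells.

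These receptors steer B cells through the spleen and lymph nodes. Nearly all couple to Gi proteins and turn a gradient of ligand into directed movement. CXCR5 follows CXCL13 into the follicle, CCR7 follows CCL19 and CCL21 to the T cell zone and its border, GPR183 (EBI2) follows oxysterols to the outer follicle, and CXCR4 follows CXCL12 to bone marrow niches, the red pulp and the dark zone of germinal centres. ACKR3 (CXCR7) also binds CXCL12 but takes it up without Gi signalling, and CCR6, CCR9 and CXCR3 answer to CCL20, CCL25 and the interferon-induced chemokines CXCL9, CXCL10 and CXCL11. MZ B cells sit at the edge of the follicle next to the blood, whereas FO B cells recirculate, so the balance of these receptors is part of what sets the cells apart. Zfp36l1 encodes a zinc finger protein that binds AU-rich elements in the 3′ untranslated region (UTR) of an mRNA and speeds its decay.

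Because Zfp36l1 binds AU-rich elements, the longest annotated 3′ UTR of each receptor was searched on the sense strand for the 7-base element TATTTAT and its 5-base core ATTTA, which lies within the longer motif. TATTTAT was found in 0 of the 8 receptor UTRs, against 27.6% of 21021 genes with an annotated 3′ UTR, and the UTR of Zfp36l1 itself holds 3. The receptor UTRs differ in length, from 73 bases in Ccr6 to 3966 in Ccr9, and length bears on how often a motif occurs. Among UTRs within 20% of the same length, TATTTAT occurs in 16.7% for Cxcr4, 19.0% for Ccr7, 1.4% for Ccr6, 10% for Cxcr3, 32.5% for Cxcr5, 33.4% for Gpr183, 38.3% for Ackr3 and 59.6% for Ccr9. The ATTTA core, present in 65.2% of genes, was found 1 time in Cxcr4, 2 times in Gpr183, 3 times in Ackr3 and 5 times in Ccr9, and in none of the other 4. These are matches of letters, not shown binding sites, and a window without a match says nothing of whether the protein binds elsewhere in the mRNA.

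The sites of the CXCL12 receptors Cxcr4 and Ackr3 and of the oxysterol receptor Gpr183 are shown as DNA of the mRNA's strand (GRCm38, 29 bases each), since these genes behaved differently in the comparisons that follow; capitals mark the ATTTA core.
Cxcr4, chr1:128588660-128588688, minus strand: aggtttgacttaATTTAtataaatacttt
Ackr3 first site, chr1:90215277-90215305, plus strand: gtgactttttgtATTTAagttttaagact
Ackr3 second site, chr1:90215489-90215517, plus strand: aaatatatataaATTTAtgccagtctcgg
Ackr3 last site, chr1:90215518-90215546, plus strand: ctgaaaggttttATTTAcaatagttttat
Gpr183 first site, chr14:121953693-121953721, minus strand: atatatttcttaATTTAcacctctttcaa
Gpr183 last site, chr14:121952650-121952678, minus strand: gcaatgatatcaATTTAtataatagggaa

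The libraries held 28938453 to 40664963 counts each. Levels are given in CPM, the share of a library's counts after TMM scaling. Zfp36l1, the targeted gene, stood at 21.9, 31.7, 28.1 and 37.4 CPM in deficient replicates 1, 2, 7 and 8, and at 115.3, 108.6, 118.8 and 125.4 in control replicates 3, 4, 5 and 6. The groups did not overlap (log2 −1.99, SE 0.13; edgeR quasi-likelihood, adjusted p = 4.92e-07). Of its exon bases, 55.9% lie opposite exons of the antisense gene Gm26669. The B cell genes Cd79a, part of the antigen receptor, and Ms4a1, which encodes CD20, were detected at high levels in every library. Cd79a was at 3470 to 4470 CPM in deficient MZ, 3380 to 3830 in control MZ and 3050 to 3360 in FO libraries, and Ms4a1 at 3600 to 4010, 3160 to 3650 and 2410 to 2550. Pax5, a B cell transcription factor, and Ptprc, which encodes CD45 and its B220 form, were also detected in every library but were lower in control MZ than in FO libraries (29 to 51.4 against 259 to 276 CPM, and 1310 to 1590 against 2800 to 3140). Genes of T cells, natural killer cells and other splenic cells are given beside the results they move with. Markers of MZ cells (Cr2, Cd1d1, S1pr3, Cd9, Dtx1 and Hes5) summed to 6130 to 6700 CPM in deficient MZ, 7110 to 7420 in control MZ and 1380 to 1750 in FO libraries. Cr2 makes up much of this sum, at 3160 to 3660 CPM in deficient and 3890 to 4390 in control MZ libraries. The markers did not move together. Cd1d1 (log2 0.56) and Hes5 (log2 0.46) were higher in deficient than in control MZ cells (edgeR, adjusted p = 0.00751 and 0.0204). Dtx1 was lower (log2 −0.40, edgeR, adjusted p = 0.00826), and the other 3 did not pass an adjusted p under 0.05.

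The first comparison asks which receptor mRNAs differed between Zfp36l1-deficient and control MZ B cells. Cxcr4 and Ccr7 were higher in the deficient cells, Cxcr4 by 2.48 times and Ccr7 by 1.29 times in the ratio of means. Of the 8 receptors, 2 were called higher and 0 lower at an adjusted p under 0.05, and 6 were not called. Over all 13987 genes tested, 3.70% were called, 2.29% higher and 1.40% lower. By the unadjusted p of the same test 4 receptors were higher and 0 lower, and DESeq2 likewise called 4 higher and 0 lower, adding Ccr6 and Cxcr3. Over the 23222 genes with any count, DESeq2 called 1057, of which 570 were higher and 487 lower. The share of all genes with an unadjusted p under 0.05 was not counted. Counts at that threshold, here and for the gene lists below, therefore have no background beside them. The median log2 difference of the 8 was 0.28, beside −0.0037 over all genes tested. In bulk RNA, fewer cells that hold an mRNA and less mRNA per cell cannot be told apart.

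Between control MZ and FO cells the receptors differed far more. Ackr3 and Cxcr5 were higher in MZ cells, Cxcr4, Ccr6, Ccr7 and Cxcr3 were higher in FO cells, and Gpr183 and Ccr9 were not called. These 6 calls are 75% of the receptors, where 81.5% of the 13843 genes tested were called, 42.6% higher and 38.8% lower in control MZ. The share of receptors called was thus no higher than that background. Cell type, kit, read layout, the floxed allele and cre differ together between these groups, and their parts cannot be told apart. Deficient MZ cells were also set against the same FO libraries, where 2 receptors were higher (Ackr3 and Cxcr5), 3 lower (Cxcr4, Ccr6 and Ccr7) and 3 not called, or 62.5%. In that comparison 81.3% of 13895 genes were called, 42.9% higher and 38.4% lower. Both comparisons use the same 4 FO libraries, so each gives its own values and neither supports the other.

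**Figure D1:**
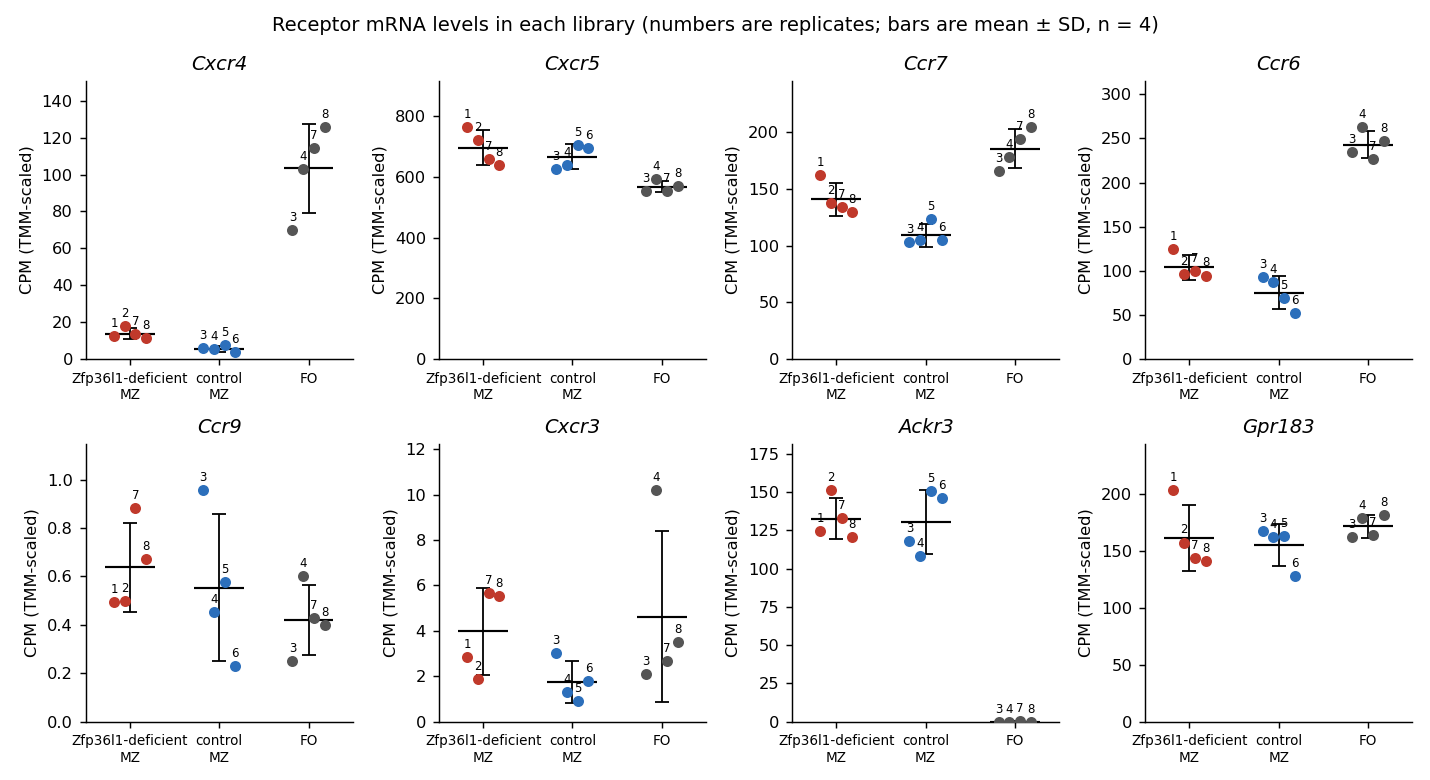
TMM-scaled CPM (vertical axis, from 0) of the 8 receptors in each of the 12 libraries, by group; numbers beside the points are replicate numbers and bars are the mean ± SD of 4 libraries. All 4 deficient libraries lie above all 4 control libraries for Cxcr4, Ccr7 and Ccr6, and Ackr3 is near 0 in all 4 FO libraries.

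Cxcr4 encodes the Gi-coupled receptor for CXCL12 (chromosome 1, 128588199 to 128592293, minus strand, GRCm38). It stood at 12.5, 17.8, 13.5 and 11.5 CPM in deficient replicates 1, 2, 7 and 8, and at 6.03, 5.25, 7.37 and 3.68 in control replicates 3, 4, 5 and 6. FO replicates 3, 4, 7 and 8 held 70.2, 103.1, 114.5 and 125.6 CPM. The 3 groups thus stood in separate ranges, with the lowest deficient library above the highest control library and every FO library above both. Ranges were also separate for 11.6% of all genes tested in deficient against control MZ. In control MZ and deficient MZ against FO they were separate for 76.5% and 76%. The log2 difference of deficient from control cells was 1.30 (SE 0.189; edgeR quasi-likelihood, adjusted p = 0.00168), larger than that of 99.3% of the genes tested. Over 14 alternatives it lay between 1.15 and 1.45, with an adjusted p from 3.07e-09 to 0.00751. In the authors' deposited table the log2 change is 0.894, with an adjusted p of 3.33e-09.

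The larger contrast for Cxcr4 was between cell types. FO cells held 103 ± 23.9 CPM (SD, n = 4) and control MZ cells 5.59 ± 1.54, 18.5 times less (log2 −4.18, SE 0.208; edgeR, adjusted p = 2.06e-09). Deficient MZ cells held 13.8 ± 2.80 CPM, 7.47 times less than FO cells (log2 −2.86, SE 0.178; edgeR, adjusted p = 1.19e-08). Deficient cells were therefore higher than control cells while staying far below FO cells. Of the FO marker genes, Klf2 stood at 139 to 153 CPM in deficient, 32.9 to 49.7 in control and 195 to 212 in FO libraries and was higher in deficient than in control cells (log2 1.87, SE 0.103; edgeR, adjusted p = 1.64e-07). Fcer2a, which encodes the CD23 that the gate sorts on, was not (log2 −0.21, SE 0.235; edgeR, adjusted p = 0.668). Markers of B-1 cells (Cd5, Spn, Zbtb32 and Bhlhe40) summed to 41.9 to 51.2 CPM in deficient, 19.1 to 26.1 in control and 50.5 to 71.7 in FO libraries. Zbtb32 (log2 1.90) and Bhlhe40 (log2 1.25) were higher in deficient cells (edgeR, adjusted p = 0.00087 and 1.07e-05) and Cd5 and Spn were not called. The macrophage gene Adgre1 was higher in deficient cells as well, at 4.08 to 5.48 against 0.69 to 2.27 CPM in control and 5.55 to 18 in FO libraries (log2 1.37, SE 0.279; edgeR, adjusted p = 0.0148), while the other 6 of 7 macrophage genes were not called. Erythroid genes summed to 7.53 to 25.1 CPM in deficient, 1.59 to 11.4 in control and 1.89 to 7.25 in FO libraries. Of 7 erythroid genes 6 were tested and 1, Hbb-bt, was called higher in deficient cells (log2 1.44; edgeR, adjusted p = 0.0491), with 5 higher at an unadjusted p under 0.05. The part of these other cell markers in the Cxcr4 and Ccr7 values was not tested.

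Ackr3 encodes the other CXCL12 receptor, which scavenges the ligand (chromosome 1, 90203980 to 90216751, plus strand). It was close to absent from FO cells, with 3, 2, 6 and 3 counts in replicates 3, 4, 7 and 8, or 0.0947, 0.0633, 0.184 and 0.0853 CPM. It was at 117.9, 108.0, 150.7 and 146.2 CPM in control MZ replicates 3, 4, 5 and 6, and at 124.8, 151.3, 132.9 and 120.9 in deficient replicates 1, 2, 7 and 8. All 8 MZ libraries were thus on one level and all 4 FO libraries on another. Scaled to depth, the summed counts were 1230 times higher in control MZ than in FO cells (exact Poisson 95% interval 732 to 2250, counting error only) and 1250 times higher in deficient MZ cells (742 to 2280). The fitted log2 differences were 10.23 (SE 0.194; edgeR, adjusted p = 8.61e-13) and 10.27 (SE 0.163; edgeR, adjusted p = 2.53e-13). Of the genes tested against control MZ cells, 99.8% had a smaller log2 difference. Between deficient and control MZ cells Ackr3 was not called (log2 0.01, 95% interval −0.185 to 0.212; edgeR, adjusted p = 0.96). The sign turned when deficient replicate 2 or control replicate 3 or 4 was left out.

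The CXCL12 receptors therefore stood in opposite orders in the cell types, with Ackr3 in MZ cells and Cxcr4 in FO cells. Per kilobase of exon, Ackr3 was at 39.0 ± 6.26 and Cxcr4 at 3.09 ± 0.853 CPM in control MZ cells, whereas Ackr3 was at 0.0319 ± 0.0158 and Cxcr4 at 57.2 ± 13.2 in FO cells. In deficient MZ cells Ackr3 was at 39.6 ± 4.03 and Cxcr4 at 7.65 ± 1.55, so Cxcr4 remained the lower of the pair in every MZ library. Their ligand Cxcl12 was too low to be tested, with at most 0.265 CPM in any library.

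**Figure D2:**
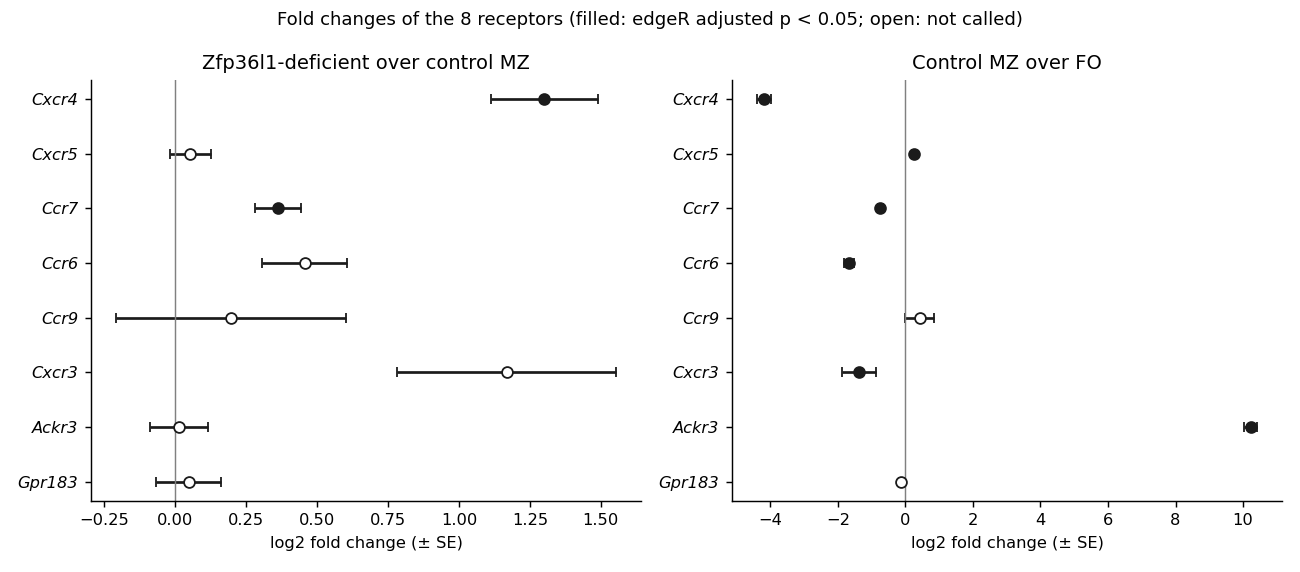
Log2 fold changes of the 8 receptors (horizontal axis; bars are ± SE of the edgeR fit), for deficient over control MZ cells on the left and control MZ over FO cells on the right; filled circles have an adjusted p under 0.05, and the axes differ in scale. Cxcr4 lies at 1.30 in the left panel and at −4.18 in the right panel, and Ackr3 at 0.01 and 10.23.

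Cxcr5 encodes the receptor for the follicle chemokine CXCL13 (chromosome 9, 44511787 to 44561877, minus strand; 3.3% of its exon bases lie opposite Bcl9l). In deficient replicates 1, 2, 7 and 8 the level was 764, 723, 660 and 639 CPM. In control replicates 3, 4, 5 and 6 it was 626, 640, 707 and 697, and in FO replicates 3, 4, 7 and 8 it was 553, 593, 555 and 571. It was the most abundant of the receptors per exon length in all 3 groups and the one whose mean changed least between cell types among those called. It was higher in control MZ than in FO cells with no overlap, by a log2 difference of 0.26 (SE 0.0531; edgeR, adjusted p = 0.000707). This is a ratio of 1.18 in means, and 58.2% of tested genes had a smaller log2 difference. Of all genes tested between control MZ and FO cells, 76.5% likewise did not overlap. Deficient and control MZ cells overlapped (log2 0.05, 95% interval −0.0873 to 0.194; edgeR, adjusted p = 0.733). The ligand gene Cxcl13 was too low to be tested, with at most 0.525 CPM in any library.

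Ccr7, the receptor for the T zone chemokines CCL19 and CCL21 (chromosome 11, 99144196 to 99155077, minus strand), was second to Cxcr5 per exon length in both MZ groups. The level was 162.3, 137.7, 134.5 and 129.6 CPM in deficient replicates 1, 2, 7 and 8, and 102.9, 104.8, 124.0 and 104.8 in control replicates 3, 4, 5 and 6. FO replicates 3, 4, 7 and 8 held 166.1, 178.6, 194.0 and 204.5 CPM. No group overlapped another, and deficient cells stood between control MZ and FO cells. Over all genes tested, 11.6% did not overlap in deficient against control MZ. The shares were 76.5% in control MZ and 76% in deficient MZ against FO. The log2 difference of deficient from control cells was 0.36 (SE 0.0814; edgeR, adjusted p = 0.0238), larger than that of 91.3% of genes tested. The call did not hold without control replicate 3, 4 or 6 (log2 0.34 to 0.35; edgeR, adjusted p = 0.0775, 0.0773 and 0.0753). The authors' deposited table gives a log2 change of 0.333 and an adjusted p of 0.00193. Against FO cells, control MZ cells were lower by a log2 difference of −0.74 (SE 0.0696; edgeR, adjusted p = 7.31e-07) and deficient MZ cells by −0.35 (SE 0.0827; edgeR, adjusted p = 0.00159).

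Gpr183, which encodes the receptor for oxysterols, oxidised forms of cholesterol (chromosome 14, 121952551 to 121965195, minus strand), did not separate any of the groups. It was at 203, 157, 144 and 141 CPM in deficient replicates 1, 2, 7 and 8, at 167, 162, 163 and 128 in control replicates 3, 4, 5 and 6, and at 162, 178, 164 and 181 in FO replicates 3, 4, 7 and 8. The ranges of all 3 groups overlapped, with deficient replicate 1 the highest and control replicate 6 the lowest of the 12. The log2 difference was 0.05 between deficient and control MZ cells (95% interval −0.175 to 0.271; edgeR, adjusted p = 0.858), −0.12 between control MZ and FO cells (−0.28 to 0.0378; edgeR, adjusted p = 0.185) and −0.04 between deficient MZ and FO cells (−0.246 to 0.158; edgeR, adjusted p = 0.701). Under upper-quartile scaling, which moved the median of all genes to 0.194 and 0.182 in the FO comparisons from 0.0549 and 0.0643, the last pair of differences turned to 0.0183 and 0.0721. Without deficient replicate 1 the difference from FO cells was −0.186 and was called (edgeR, adjusted p = 0.0157). Of 6 genes for enzymes that make or break down oxysterols, not all of them ligands of this receptor, 2 were tested between deficient and control MZ cells. EdgeR and DESeq2 called 0 of them higher and 0 lower. At an unadjusted p under 0.05, 1 was higher (Cyp27a1, log2 0.28; edgeR, adjusted p = 0.256). Hsd3b7, which acts in the breakdown of the ligand, was higher in FO than in control MZ cells (log2 −1.84 in MZ), but 62.4% of its exon bases lie opposite another gene and 62% overlap another gene on the same strand, so its counts are uncertain.

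Ccr6, the receptor for CCL20 (chromosome 17, 8236043 to 8257141, plus strand), was with Cxcr3 the nearest to a call among those not called. Levels in CPM were 124.6, 96.8, 99.7 and 94.6 in deficient replicates 1, 2, 7 and 8, and 92.5, 87.4, 69.3 and 51.7 in control replicates 3, 4, 5 and 6. FO replicates 3, 4, 7 and 8 held 235, 263, 227 and 248 CPM. The deficient and control ranges did not overlap, as was so for 11.6% of all genes tested, but they nearly touched between deficient replicate 8 and control replicate 3. The log2 difference was 0.46 (SE 0.151, 95% interval 0.161 to 0.752; edgeR, adjusted p = 0.113). It was called by DESeq2 (adjusted p = 0.0395) and by edgeR without a filter on low counts (adjusted p = 0.0265), and the authors' deposited table gives 0.356 with an adjusted p of 0.0426. The FO marker Fcer2a stood at 169, 154, 122 and 69.4 CPM in control replicates 3, 4, 5 and 6, and at 163, 90.3, 105 and 87.8 in deficient replicates 1, 2, 7 and 8. Its part in the spread of Ccr6 was not tested. Between cell types Ccr6 was 3.23 times higher in FO than in control MZ cells (log2 −1.67 in MZ, SE 0.149; edgeR, adjusted p = 4.96e-07). The difference of deficient MZ from FO cells was −1.18 (SE 0.0884; edgeR, adjusted p = 6.84e-08).

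Cxcr3, a receptor for interferon-induced chemokines whose gene is a known target of the transcription factor T-bet (chromosome X, 101731535 to 101734269, minus strand), was low and varied widely within every group. It was at 2.86, 1.86, 5.66 and 5.55 CPM in deficient replicates 1, 2, 7 and 8, and at 3.04, 1.30, 0.916 and 1.78 in control replicates 3, 4, 5 and 6. In FO replicates 3, 4, 7 and 8 it was at 2.08, 10.2, 2.69 and 3.50. The groups overlapped, and FO replicate 4 stood well above every other library. The log2 difference of deficient from control MZ cells was 1.17 (SE 0.386, 95% interval 0.412 to 1.92; edgeR, adjusted p = 0.114), close in size to that of Cxcr4, whose SE was 0.189. DESeq2 and edgeR without a filter on low counts called it (adjusted p = 0.032 and 0.0288), and the authors' deposited table gives 0.416 with an adjusted p of 0.0365. Control MZ cells were lower than FO cells (log2 −1.36, SE 0.50; edgeR, adjusted p = 0.0238). That call was lost without FO replicate 4 (log2 −0.631; edgeR, adjusted p = 0.123) and without control replicate 4 or 5 (adjusted p = 0.0632 and 0.0673). Between deficient MZ and FO cells the log2 difference was −0.17 (SE 0.473; edgeR, adjusted p = 0.752), and it was 0.556 without FO replicate 4.

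T cells and natural killer cells also carry Cxcr3. The 8 T cell genes examined summed to 39.6 to 45.6 CPM in deficient MZ, 36.9 to 48.9 in control MZ and 39.2 to 48.7 in FO libraries. The 4 natural killer cell genes summed to at most 0.702, 0.737 and 0.49 CPM. Lck, which gave 36 to 48 CPM in every library, makes up nearly all of the T cell sum, so the sum says little of the other genes. Of the 8 T cell genes 3 were tested between deficient and control MZ cells, and 2 were higher in deficient cells. Cd8a was at 0.638 to 3.16 against 0.337 to 0.589 CPM (log2 2.04, SE 0.422; edgeR, adjusted p = 0.0161). Tcf7 was at 0.333 to 1.84 against 0.049 to 0.254 CPM (log2 2.46, SE 0.53; edgeR, adjusted p = 0.0193). Lck was not called (log2 −0.08; edgeR, adjusted p = 0.683), and the other 5 were too low to be tested. Among these, Cd3d was at 0.116 to 0.255 CPM in deficient and 0.0508 to 0.241 in control libraries, and Trac at 0.0583 to 0.306 and 0.0964 to 0.152. Cd3e and Cd4 had no counts in the control MZ libraries and reached at most 0.0278 and 0.0638 CPM in deficient ones. Of the 4 natural killer genes, Gzma and Ncr1 had 0 counts in all 8 MZ libraries, and the others were detected at low levels. Nkg7 was at 0.0556 to 0.542 CPM in deficient and 0 to 0.169 in control libraries. Klrb1c was at 0.0232 to 0.25 and 0.0736 to 0.737 CPM. All 4 were too low to be tested between deficient and control MZ cells. The part of these cells in the Cxcr3 values was not tested.

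Ccr9, the receptor that takes lymphocytes to the gut in response to CCL25 (chromosome 9, 123678439 to 123784330, plus strand), was at the edge of detection. It had 17, 18, 38 and 21 counts in deficient replicates 1, 2, 7 and 8, 39, 17, 24 and 9 in control replicates 3, 4, 5 and 6, and 8, 19, 14 and 14 in FO replicates 3, 4, 7 and 8. The groups overlapped at 0.637 ± 0.182, 0.554 ± 0.305 and 0.420 ± 0.143 CPM (SD, n = 4 each). No difference was detectable at this depth between deficient and control MZ cells (log2 0.20, 95% interval −0.599 to 0.994; edgeR, adjusted p = 0.836) or between control MZ and FO cells (log2 0.43, −0.41 to 1.26; edgeR, adjusted p = 0.368). Between deficient MZ and FO cells the log2 difference was 0.65 (SE 0.327; edgeR, adjusted p = 0.0829), and without FO replicate 4 it was 0.85 and was called (adjusted p = 0.0454). Of the exon bases of Ccr9, 19.0% lie opposite exons of other genes and 2.62% overlap Gm17200 on the same strand, so part of these counts may come from neighbours.

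Divided by exon length, the receptors could be ordered within each group. In control MZ cells the order was Cxcr5 (200.3 CPM per kilobase), Ccr7 (55.2), Gpr183 (53.7), Ackr3 (39.0), Ccr6 (32.4), Cxcr4 (3.09), Cxcr3 (1.02) and Ccr9 (0.0540). From Ccr7 down to Ccr6 the ranges of neighbours overlapped, so only Cxcr5 at the top and the lowest 3 held separate places. Deficient MZ cells gave Cxcr5 (209), Ccr7 (71.3), Gpr183 (55.9), Ccr6 (44.8), Ackr3 (39.6), Cxcr4 (7.65), Cxcr3 (2.30) and Ccr9 (0.0621). Ccr6 and Ackr3 thus exchanged places, but their ranges overlapped in both MZ groups. FO cells gave Cxcr5 (170.4), Ccr6 (104.8), Ccr7 (93.9), Gpr183 (59.4), Cxcr4 (57.2), Cxcr3 (2.67), Ccr9 (0.0409) and Ackr3 (0.0319). There the overlapping neighbours were Ccr6 with Ccr7, Gpr183 with Cxcr4, and Ccr9 with Ackr3. Cxcr5 lay above 99.4% of coding genes in control MZ and 98.9% in FO cells on this scale. Ackr3 lay above 94.8% in control MZ and 45.7% in FO cells, and Cxcr4 above 64.5% and 96.4%.

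**Figure D3:**
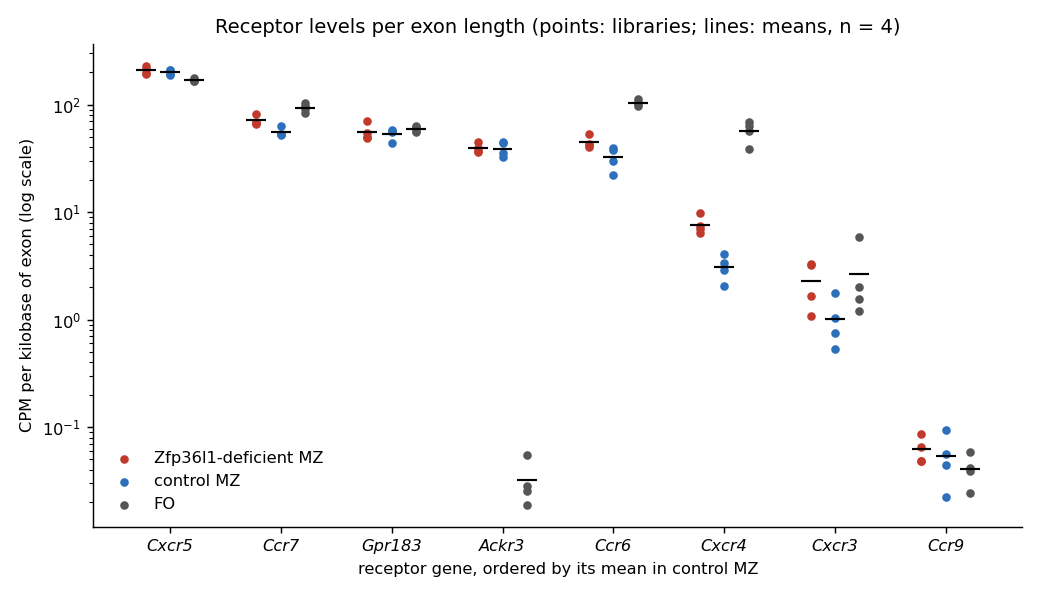
TMM-scaled CPM per kilobase of exon (vertical log axis) for the 8 receptors, ordered by their mean in control MZ cells; points are libraries and lines are means of 4. Cxcr5 is at the top in all 3 groups, from 170.4 to 209, while Ackr3 and Cxcr4 change places between MZ and FO cells.

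The genes whose pattern over the 12 libraries was most like that of Cxcr4 and Ccr7 were found by the root mean square difference of log2 CPM, centred for each gene, among 5274 coding genes that varied. For Cxcr4 they were Myadm (0.229), the oligopeptide transporter gene Slc15a3 (0.351) and the kinase gene Sgk1 (0.393), where Cxcr4 itself had an SD of 1.86. Myadm, which encodes a membrane protein of myeloid and lymphoid cells, had means of 8.61, 3.38 and 77.1 CPM in deficient MZ, control MZ and FO cells. It was higher in deficient than in control cells by a log2 difference of 1.34 (SE 0.186; edgeR, adjusted p = 0.00112), and so was Sgk1 by 1.13 (SE 0.227; edgeR, adjusted p = 0.0141). Slc15a3 was not called (log2 0.64, SE 0.253; edgeR, adjusted p = 0.184). For Ccr7 they were Ppp3r1, a regulatory subunit of calcineurin (0.0828), Gatad1 (0.0904) and Nptn (0.0993), against an SD of 0.349. Ppp3r1 was higher in deficient cells (log2 0.36, SE 0.0722; edgeR, adjusted p = 0.0142), whereas Gatad1 and Nptn were not called (log2 0.21 and 0.26; edgeR, adjusted p = 0.201 and 0.0548). The measure takes in the distance between MZ and FO libraries, which also differ in kit. It also takes in the deficient and control libraries in which these genes were then tested. A gene picked for being like a receptor called higher tends to be higher too. These differences are therefore a description and add no support to those of Cxcr4 and Ccr7.

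Of 17 other chemokine receptor genes, 9 were tested between deficient and control MZ cells, 1 of them was higher and 0 were lower. At an unadjusted p under 0.05 there were 2 higher and 2 lower, and DESeq2 called 2 in each direction. The 1 called by edgeR was Ackr2, which encodes a scavenger of inflammatory CC chemokines. It rose from 87.5 ± 14.9 CPM (70.6 to 100) in control to 133 ± 11.8 (121 to 148) in deficient cells, with no overlap (log2 0.60, SE 0.105; edgeR, adjusted p = 0.00676). In control MZ against FO cells 8 of the 17 were tested and all 8 were higher in MZ cells, with a median log2 difference of 2.54 beside 0.0549 over all genes. A gene could pass the filter on low counts through its MZ level alone, so this count is a description, and 81.5% of all genes tested were called in this comparison. Markers of other cells were higher in control MZ than in FO cells as well. Of 7 macrophage genes 6 were higher and 1 (Adgre1) lower, among them Lyz2 (log2 2.93) and Csf1r (log2 2.62). All 5 platelet genes were higher (log2 0.63 for Itga2b to 5.61 for Gp1bb), and 2 of the 4 dendritic cell genes tested, Zbtb46 (log2 2.16) and Xcr1 itself. Gp1bb was low (1.26 against 0.0224 CPM), and 92.9% of its exon bases overlap other genes on the same strand, so its counts are uncertain. The part of these marker genes in the receptor levels was not tested. Ackr2 (87.5 against 3.37 CPM, log2 4.72) and Ccr1 (67.3 against 3.13, log2 4.45) were the most abundant of those named. Xcr1 (1.72 against 0.192, log2 3.17) and Ackr4 (1.05 against 0.154, log2 2.77) were low in both groups, and 8.9% of the exon bases of Ackr4 lie opposite another gene. The atypical receptor genes Ackr2, Ackr3 and Ackr4 were thus higher in control MZ than in FO cells, as were all other genes of this list that were tested.

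Of 16 chemokine genes, 6 were tested between deficient and control MZ cells, 1 was higher and 0 were lower, with 2 higher and 0 lower at an unadjusted p under 0.05. Ccl5, a T cell and macrophage chemoattractant, was 2.84 to 11.5 CPM in deficient and 0.955 to 2.05 in control libraries (log2 2.12, SE 0.389; edgeR, adjusted p = 0.00895). T cells and natural killer cells are its usual source, and the levels of their genes are given beside Cxcr3, where Cd8a and Tcf7, 2 of the 3 T cell genes tested, were higher in deficient cells. Their part in the Ccl5 values was not tested. A chemokine gene could pass the filter on low counts through its MZ level alone, so the counts in control MZ against FO cells are a description. There 5 of 7 tested were higher and 0 lower, where 81.5% of all genes were called and 42.6% were called higher. Among them were Mif, a ligand of CXCR4 (89.8 ± 5.76 against 38.7 ± 2.98 CPM, log2 1.24), and Cxcl16 (1.79 against 0.154 CPM, log2 3.54; 18.3% of its exon bases lie opposite another gene). Ccl22 (0.858 against 0.308 CPM) and Ccl5 (log2 1.29) were also higher. DESeq2 called 1 chemokine gene lower. The chemokines that draw B cells into the follicle and T zone are made by stroma, and Cxcl12 and Cxcl13 were not above the filter here.

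Receptor signals pass through Gi proteins to phosphoinositide 3-kinase γ, Rac and Rap. Of 27 genes of this pathway, 25 were tested between deficient and control MZ cells. Rasgrp2, which activates Rap1 and so integrins, was higher (95.7 to 107 CPM in control, 133 to 153 in deficient; log2 0.46, SE 0.0699; edgeR, adjusted p = 0.00211). Pik3cg, the catalytic subunit of phosphoinositide 3-kinase γ, was lower (80.1 to 117 in control, 60.1 to 73.1 in deficient; log2 −0.65, SE 0.109; edgeR, adjusted p = 0.0043). The groups did not overlap for either gene, and the other 23 were not called. The median log2 difference of the 25 was 0.0183. Between control MZ and FO cells 8 of the 25 were higher and 12 lower, a share called close to the 81.5% of all genes, with Rasgrp2 (102 against 766 CPM, log2 −2.89) lowest. Under upper-quartile scaling the split turned to 12 higher and 9 lower. The genes of the G protein subunits Gna13 (log2 −1.73) and Gng2 (log2 −1.08; 20.4% of its exon bases lie opposite another gene) were lower as well. Pik3cg was also lower in control MZ cells (102 CPM) than in FO cells (162 CPM), so its level in deficient cells lay further from that of FO cells, whereas that of Rasgrp2 lay nearer.

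The kinases, arrestins and RGS proteins that switch such receptors off did not pass the test between deficient and control MZ cells. Of 24 symbols 20 were tested, and edgeR called 0 higher and 0 lower. At an unadjusted p under 0.05 there were 4 higher and 5 lower, and DESeq2 called 2 higher and 0 lower. In control MZ against FO cells 9 of 21 were higher and 9 lower, again near the 81.5% called over all genes. Rgs10 (46.1 against 1.80 CPM, log2 4.71) and Rgs18 (44.7 against 15.8, log2 1.52), which shorten G protein signals, were higher in MZ cells. Arrb1, which encodes the arrestin β-arrestin 1 (17.7 against 125 CPM, log2 −2.80), and Grk2, the kinase that marks activated receptors for arrestin (486 against 944, log2 −0.93), were higher in FO cells.

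**Figure D4:**
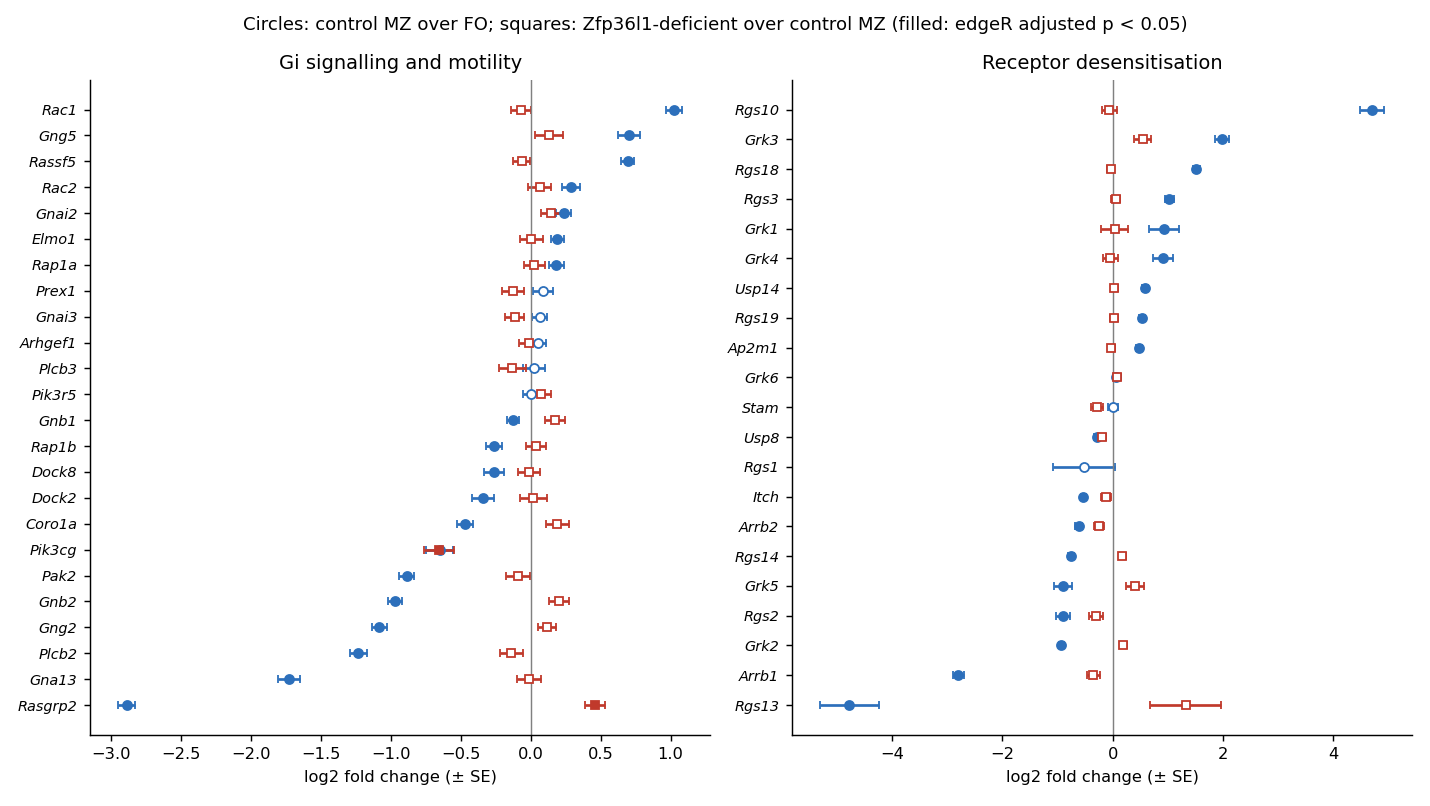
Log2 fold changes (horizontal axis; bars are ± SE of the edgeR fit) of genes of Gi signalling and motility on the left and of receptor desensitisation on the right; circles are control MZ over FO, squares are deficient over control MZ, and filled symbols have an adjusted p under 0.05. Rasgrp2 and Pik3cg are the filled squares, at 0.46 and −0.65, and the circle farthest to the left in the first panel is Rasgrp2 at −2.89.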

How the data were processed

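RNA-seq counts of 12 libraries of sorted mouse splenic B cells were used. The build was GRCm38 and the tools included HTSeq, TopHat2 2.0.12, DESeq2 1.10.1 and Trim Galore, per the submitters' processing notes. For strand, counting mode and annotation, settings were not given in the sources used here. In the labels, the extraction text gives SMARTer for every sample, so only the design text speaks of TruSeq for FO cells. The deposited raw counts hold 1 column per library with whole numbers for each Ensembl gene. From the 2 DESeq2 tables the authors deposited, the log2 fold changes and adjusted p-values of the receptors were copied; nothing says whether shrinkage was applied. The deposited normalised table was not used.

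Of the gene IDs, 42548 matched GENCODE M21 (GRCm38), which gave symbols, coordinates, exon lengths and 3′ UTRs. In R 4.3.3, edgeR 4.0.16 and its quasi-likelihood test were run for each comparison on the 8 libraries concerned, with TMM scaling, the default filter on low counts and Benjamini-Hochberg adjustment over all genes tested, and a call at an adjusted p under 0.05. DESeq2 1.42.0, other scalings and filters, a fit of all 12 libraries, a replicate block, robust estimation (chosen after seeing the data) and leaving out each library were tried. Intervals of log2 differences are normal 95% intervals from the SE, which are somewhat narrower than the quasi-likelihood test with 8 libraries implies. For Ccr9 in deficient MZ against FO, the interval of 0.0102 to 1.29 left out 0 while the edgeR unadjusted p was 0.0693. Tested on simulated counts, the deficient against control design (13843 genes) recovered 76.1% of 1.5-fold, 89.6% of 2-fold and 100% of 4-fold changes. The control MZ against FO design (13630 genes) recovered 68.7%, 91% and 97%, and the deficient MZ against FO design (13661 genes) 62.7%, 94% and 100%. False calls in the 3 designs numbered 11, 7 and 2. Every simulated gene had the same relative spread between libraries beyond counting noise. The shares recovered therefore do not carry over to genes that varied more, such as Cxcr3. Each simulation changed only 67, 67 and 66 genes by 1.5, 2 and 4 times. In the comparisons with FO cells 81.5% and 81.3% of genes were called, so the recovery and false calls of those 2 designs do not carry over to them.

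Nothing in the labels ties replicates to separate animals; the p-values therefore reflect the spread among these libraries, which may be technical. No library columns were identical (0), and between replicates the chi-square per gene was 5.78 to 48.6, above sampling noise. The receptors, the gene lists and the tests were chosen with earlier results of these data known. Named were all 8 receptors, Zfp36l1, every gene of the 5 receptor-related lists called between deficient and control MZ cells, up to 4 per list called in control MZ against FO with the smallest p, and the 3 genes most like each receptor called between deficient and control MZ cells. Cyp27a1, Cxcl12, Cxcl13, Cd8a and Tbx21 were named outside this rule, with their values known, as were single genes of the marker lists. Some genes of these lists are not reported here.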

Additional observations from a re-analysis of the deposited data

Results flagged for a closer look

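In 3 of 27 sets of 4 libraries (9 genes in 3 groups), 1 library stood apart from the other 3 by more than the 95% limit of Dixon's test, which chance passes in about 1 in 20 sets. Ccr7 in control MZ replicate 5 was 124 CPM, against 103 to 105 in the other control libraries. Ccr6 in deficient MZ replicate 1 was 125 CPM, against 94.6 to 99.7 in the other deficient libraries. Gpr183 in control MZ replicate 6 was 128 CPM, against 162 to 167 in the others. Deficient replicate 1 also had the highest Gpr183, Ccr7 and Cxcr5 of its group, at 203, 162.3 and 764 CPM.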

How the results depend on the processing

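Cxcr4 kept its call and direction between deficient and control MZ cells under all 14 alternatives, as did Ackr2, Ccl5, Rasgrp2 and Pik3cg. Genes called in that comparison numbered 1057 with DESeq2 and 788 with all 12 libraries in one fit, against 517, and 253 to 483 when 1 library was left out. Receptors called numbered 4 with DESeq2 and 4 without a filter on low counts, and 1 to 2 when 1 library was left out. Receptors that were not called changed sign: Gpr183 to −0.0778 without deficient replicate 1 and −0.0347 without control replicate 6, Ackr3 to −0.0517 without deficient replicate 2 and to −0.0296 and −0.0616 without control replicates 3 and 4, and Ccr9 to −0.0583 without control replicate 6 and −0.00959 without deficient replicate 7. Against FO cells, Gpr183 turned to 0.0183 (control MZ) and 0.0721 (deficient MZ) under upper-quartile scaling, and in deficient MZ to 0.0102 and 0.0081 without deficient replicates 7 and 8. Cxcr3 in deficient MZ against FO turned to 0.0642 without deficient replicate 2 and 0.556 without FO replicate 4. Cxcr3 in control MZ against FO lost its call with robust estimation (edgeR, adjusted p = 0.0564, chosen after seeing the data), and Ccr9 in deficient MZ against FO gained one under upper-quartile scaling (log2 0.768; edgeR, adjusted p = 0.0463). Over all single libraries left out, these log2 differences reached 0.115 for Gpr183, 0.0782 for Ackr3 and 0.602 for Ccr9 in deficient against control MZ, and −0.186 for Gpr183 and −0.428 for Cxcr3 in deficient MZ against FO. The cause of these changes was not tested.

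MZ and FO libraries share 2 replicate numbers per comparison but not genotypes, and same-numbered libraries deviated with correlations of −0.0535 and −0.143 (control MZ) and 0.166 and −0.0107 (deficient MZ), so they share only a number. In a fit with a replicate block, a library whose number the other group lacks adds nothing to the group difference. The blocked differences thus rest on replicates 3 and 4 of control MZ and FO, and on replicates 7 and 8 of deficient MZ and FO. With this block, 9951 genes were called in control MZ against FO instead of 11278, and 11042 in deficient MZ against FO instead of 11293. In the blocked fit Cxcr3 was −1.19 in control MZ (edgeR, adjusted p = 0.215) and 0.915 in deficient MZ (adjusted p = 0.000157), Gpr183 was called lower in deficient MZ (−0.225, adjusted p = 0.00658), and Ccl5 and Ccl22 lost their calls in control MZ against FO (adjusted p = 0.17 and 0.257). There the genes called higher numbered 5 instead of 8 among the other chemokine receptors, 2 instead of 5 among chemokines and 5 instead of 8 in Gi signalling. No paired analysis was possible for deficient against control MZ because these groups share no replicate number. The counts of Ccr9, of Cxcr3 and of Ackr3 in FO cells limit the precision of their values.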

Other observations

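The gene whose pattern over the 12 libraries was most like that of Cxcr3 was Tbx21, which encodes T-bet (root mean square difference of centred log2 CPM 0.598, where Cxcr3 had an SD of 0.952). This gene was picked out after its values were seen, by its likeness over the same libraries, so its differences are a description. Tbx21 held 3.85, 2.97, 4.46 and 4.31 CPM in deficient replicates 1, 2, 7 and 8, and 2.48, 1.33, 1.01 and 1.22 in control replicates 3, 4, 5 and 6. FO replicates 3, 4, 7 and 8 held 4.92, 18, 5.32 and 7.45 CPM. The library with the most Cxcr3, FO replicate 4, was thus also the one with the most Tbx21. Deficient cells were above control cells with no overlap (log2 1.36, SE 0.271; edgeR, adjusted p = 0.0139), and control MZ were below FO cells (log2 −2.54, SE 0.435; edgeR, adjusted p = 0.000158).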
